A study of Mus musculus with 6 samples.

Results

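The CC chemokines are small secreted proteins named for 2 cysteines that stand side by side near the start of the mature protein. They bind receptors of the CCR family on leukocytes and direct the movement of monocytes, T cells, eosinophils and other cells into tissue. In the liver, Kupffer cells, the resident macrophages, are a known source of several of them, and *Ccl2*, the main attractant of CCR2-bearing monocytes, is a common readout of liver inflammation in obesity.

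The transcripts of 10 CC chemokine genes, of 49315 genes listed, were examined in liver F4/80-positive cells: *Ccl2*, *Ccl7*, *Ccl8*, *Ccl12*, *Ccl3*, *Ccl4*, *Ccl5*, *Ccl6*, *Ccl9* and *Ccl24*. They were chosen among the CC chemokines with earlier results of these data known, and all 10 passed the low-count filter. The cells came from 3 WT and 3 Lpcat3 KOMac mice, with 1 RNA library for each mouse. The Lpcat3 KOMac mice were Lpcat3 fl/fl LysM Cre/+, in which Cre is driven by the lysozyme M (*Lyz2*) locus, active in myeloid cells in general and not in Kupffer cells alone. *Lpcat3* encodes an enzyme that places polyunsaturated fatty acids such as arachidonic acid into phospholipids. The WT mice were Lpcat3 fl/fl LysM+/+ littermates, so that both groups carried the floxed alleles, on a C57BL/6N background. All 6 mice received a high-fat diet with 60% fat for 16 weeks, started at an age of 8 to 12 weeks. The labels name no other treatment. The sex of these 6 mice is not given in the labels.

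Total counts lay between 44954224 and 71392812 per library. Levels are given as CPM, the counts of a gene relative to its library's total after TMM scaling, which corrects for library size and composition. Values of single mice stand in the order of mice 1, 2 and 3 of a genotype. A log2 fold change is Lpcat3 KOMac against WT. *Lpcat3*, the deleted gene, was at 85.0, 66.2 and 61.2 CPM in WT against 19.5, 33.3 and 19.4 CPM in Lpcat3 KOMac mice. Its groups did not overlap, and its log2 fold change of -1.56 (standard error 0.26) had an adjusted p = 1.00 in edgeR's quasi-likelihood test and an adjusted p = 0.00386 in DESeq2. *Lpcat3* shares 334 exonic bases with *Emg1* on the other strand, and counts there may mix both genes. Of 6 Kupffer cell transcripts, *Cd5l* and *Clec4f* were at 8317 to 11785 CPM and 6449 to 12171 CPM. *Adgre1* and *Vsig4* varied 1.54-fold and 1.58-fold over the 6 libraries. *Timd4* at 122.9 to 937.57 CPM and *Marco* at 148.45 to 3168.1 CPM were far less even. All 6 were lowest in Lpcat3 KOMac mouse 2. *Clec4f* was lower in every Lpcat3 KOMac mouse than in every WT mouse, as for 5.2% of all genes tested. Its log2 fold change was -0.44 (standard error 0.17, unadjusted p = 0.0423 in edgeR's quasi-likelihood test), and it was not called. The 5 hepatocyte transcripts (*Alb*, *Apoa1*, *Apoa2*, *Ttr* and *Fgb*) summed to 1755 to 20185 CPM, highest in WT mouse 1 and next in Lpcat3 KOMac mouse 2. Of 6 neutrophil transcripts, *Ly6g* had at most 3 counts in any library, *Csf3r* was at 74.7 to 155 CPM, and *S100a8*, *S100a9*, *Retnlg* and *Cxcr2* were at 0.12 to 2.83 CPM. None of them was called. *S100a8* and *Cxcr2* were higher in every Lpcat3 KOMac mouse than in every WT mouse, as for 2.29% of all genes tested. *S100a8* had an adjusted p = 1.00 and an unadjusted p = 0.0353 in edgeR, and *Cxcr2* rested on 6 to 15 counts per library. The groups of *S100a9*, *Retnlg* and *Csf3r* overlapped. In all, 6 T and NK cell transcripts summed to 1.04 to 3.05 CPM.

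Of the 10 genes, 9 lie on chromosome 11 of GRCm38 in 2 clusters. *Ccl2*, *Ccl7*, *Ccl12* and *Ccl8* span 81.2 kb (chr11:82035571-82116799), and *Ccl5*, *Ccl9*, *Ccl6*, *Ccl3* and *Ccl4* span 139 kb (chr11:83525778-83664683). A stretch of 1409 kb separates both clusters. *Ccl24* stands alone on chromosome 5 (chr5:135569937-135573049). The codons that give the family its name follow for all 10 genes, since they mark what the members share and how far the sequence around them has diverged. Each line gives 60 bases of coding sequence, 5′ to 3′ on the coding strand, from the GENCODE M21 transcripts of GRCm38, with the paired cysteine codons in capitals.
*Ccl2*: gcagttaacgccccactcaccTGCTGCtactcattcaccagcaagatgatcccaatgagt
*Ccl7*: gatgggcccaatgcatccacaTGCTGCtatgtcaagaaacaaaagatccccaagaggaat
*Ccl8*: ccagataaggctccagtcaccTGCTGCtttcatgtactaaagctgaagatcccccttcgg
*Ccl12*: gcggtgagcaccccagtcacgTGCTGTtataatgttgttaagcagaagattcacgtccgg
*Ccl3*: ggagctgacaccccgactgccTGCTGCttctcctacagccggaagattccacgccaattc
*Ccl4*: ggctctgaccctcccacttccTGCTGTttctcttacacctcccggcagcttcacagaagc
*Ccl5*: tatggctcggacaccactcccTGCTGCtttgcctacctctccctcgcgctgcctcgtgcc
*Ccl6*: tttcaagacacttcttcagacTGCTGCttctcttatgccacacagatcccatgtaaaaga
*Ccl9*: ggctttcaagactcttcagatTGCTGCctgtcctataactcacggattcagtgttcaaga
*Ccl24*: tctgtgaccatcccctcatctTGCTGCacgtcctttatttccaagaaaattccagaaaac

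The pair is encoded by exon 2 of 3 in 8 of these genes and by exon 3 of 4 in *Ccl6* and *Ccl9*. In *Ccl2* it lies at chr11:82036506-82036511 on the plus strand, in *Ccl3* at chr11:83648652-83648657 and in *Ccl6* at chr11:83589386-83589391, both on the minus strand, and in *Ccl24* at chr5:135572665-135572670 on the minus strand. Over the whole coding sequence the closest pairs were *Ccl3* and *Ccl4*, with 66.7% identical bases, *Ccl6* and *Ccl9*, with 64.6%, and *Ccl8* and *Ccl12*, with 64.4%. No run of 50 bases was shared between the transcripts of any pair of the 10 genes, and 9 of them shared none with a transcript of another gene on either strand. *Ccl9* shared 59 of its 2996 such runs (1.97%). Of the overlapping genes on the other strand, *Gm17268* at *Ccl2* had 0 counts in every library and *E230016K23Rik* at *Ccl6* had 10 to 16 counts, and neither touches an exon of its partner.

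*Ccl6* carried most of the CC chemokine RNA of these cells. Its product, also called C10, attracts macrophages and other leukocytes through CCR1. Per length of transcript (RPKM, CPM per kb of exonic length), *Ccl6* was at 384 to 523 RPKM over the 6 libraries, and it made up 63.6% to 76.7% of the summed RPKM of the 10 genes. *Ccl24* came second at 44.1 to 87.7 RPKM, followed by *Ccl3* at 18.2 to 49.7 RPKM. *Ccl4* at 10.2 to 33.5 RPKM and *Ccl9* at 5.19 to 40.5 RPKM had medians of 22.2 RPKM each, and either was the higher in 3 of the 6 libraries. *Ccl2* was at 7.74 to 24.7 RPKM and *Ccl7* at 2.09 to 7.55 RPKM. *Ccl12* (1.66 to 4.35 RPKM), *Ccl5* (1.46 to 5.04 RPKM) and *Ccl8* (0.753 to 15.7 RPKM) were lowest by median. The range of *Ccl6* did not touch that of *Ccl24*, and the range of *Ccl2* did not touch that of *Ccl7*. All other neighbours in this order had overlapping ranges, although *Ccl24* was above *Ccl3*, and *Ccl3* above *Ccl4*, within each of the 6 libraries.

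**Figure D1:**
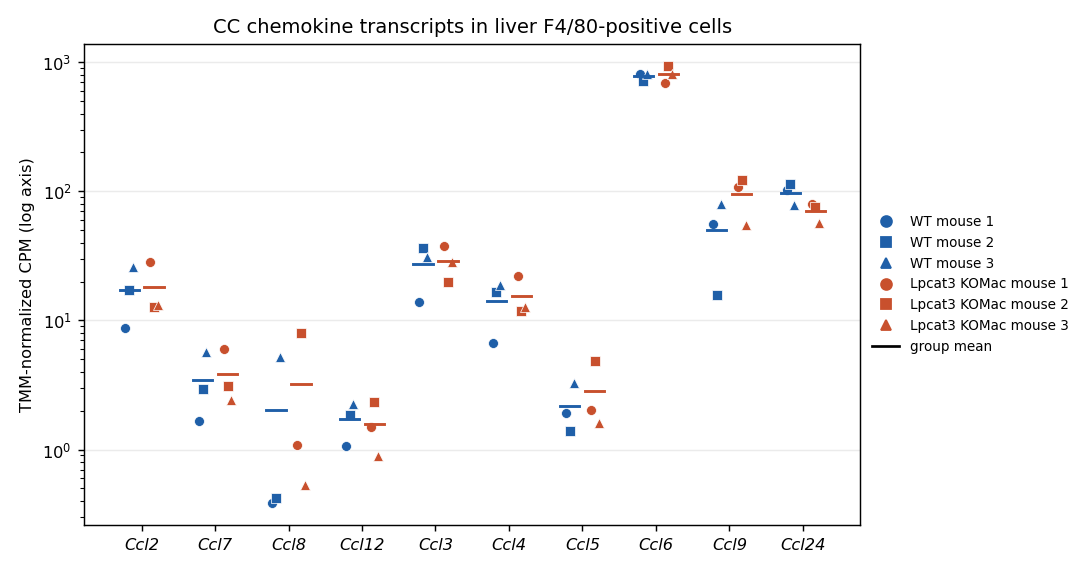
TMM-normalized CPM (log axis) of the 10 CC chemokine genes in each of 3 WT (blue) and 3 Lpcat3 KOMac (orange) mice, with a bar at each group mean. *Ccl6* lies between 689 and 938 CPM in all mice, *Ccl8* spreads from 0.385 to 8.04 CPM, and the points of both genotypes overlap for every gene.

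The first question was whether the loss of *Lpcat3* from myeloid cells went with another level of these inflammatory signals. None of the 10 genes was called: 0 had an adjusted p-value under 0.05 by the quasi-likelihood test of edgeR, adjusted after Benjamini-Hochberg over all genes, as for 0.0% of the 16134 genes tested. The same test did not call *Lpcat3*, the deleted gene, either (unadjusted p = 0.00119 in edgeR). An absent call in edgeR therefore does not show an unchanged level. At an unadjusted p-value under 0.05 edgeR had 0 of the 10 genes, against 2.64% of all genes tested. DESeq2 called 0 of the 10, against 0.112% of the genes it tested, and limma-voom called 0, each also with 0 at an unadjusted p-value under 0.05. The groups overlapped for 10 of the 10 genes, while 7.49% of all genes tested had groups that did not overlap (5.2% with Lpcat3 KOMac lower, 2.29% with it higher). Of the 10 log2 fold changes 8 lay above 0, against 40.1% of all genes tested, and their median was 0.12 against -0.04 over all genes tested. This lean depended on which mice were included. Without WT mouse 1, 4 of the 10 lay above 0 (median -0.18), without Lpcat3 KOMac mouse 1 also 4 (median -0.08), and without Lpcat3 KOMac mouse 2, 5 (median 0.12). Without WT mouse 2, 8 lay above 0 (median 0.10), and without WT mouse 3, 9 (median 0.44). Without Lpcat3 KOMac mouse 3, 9 lay above 0 (median 0.28). With the hepatocyte transcripts as a covariate 9 lay above 0 (median 0.39). With both hepatocyte-rich libraries (WT mouse 1 and Lpcat3 KOMac mouse 2) left out, 1 of the 10, *Ccl9*, lay above 0 (median -0.05). That omission was chosen after seeing the data. With 3 mice against 3, an exact permutation test cannot give a p-value below 0.1. In RNA from a mixed preparation such as this one, fewer cells of a type and less RNA per cell cannot be told apart.

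The monocyte chemoattractants are described first. *Ccl2* was at 8.80, 17.15 and 26.0 CPM in WT against 28.1, 12.8 and 13.1 CPM in Lpcat3 KOMac mice. Its highest and its lowest value were thus 3.19-fold apart, with the lowest in a WT mouse, and the genotypes overlapped over most of this range. The means were 17.3 ± 8.62 CPM in WT and 18.001 ± 8.75 CPM in Lpcat3 KOMac cells (SD, n = 3 each). The log2 fold change was 0.06, with a standard error of 0.50 and a 95% interval from -1.17 to 1.29. Without WT mouse 1 the log2 fold change was -0.26 and without Lpcat3 KOMac mouse 1 it was -0.37.

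*Ccl7*, which encodes a second ligand of CCR2, lies 8.26 kb downstream of *Ccl2*. It was at 1.68, 2.95 and 5.71 CPM in WT against 6.04, 3.11 and 2.42 CPM in Lpcat3 KOMac mice. WT mouse 1 was again lowest, and WT mouse 3 and Lpcat3 KOMac mouse 1 were again highest. Its log2 fold change was 0.17 (standard error 0.56, 95% interval -1.21 to 1.54), and it was -0.16 without WT mouse 1 and -0.27 without Lpcat3 KOMac mouse 1. Within a library the RPKM of *Ccl2* was 2.89 to 4.09 times that of *Ccl7*, a ratio that varied 1.41-fold over the 6 mice while each gene varied more than 3-fold.

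*Ccl12*, which encodes another CCR2 ligand of the mouse, was at 1.06, 1.84 and 2.25 CPM in WT against 1.48, 2.33 and 0.892 CPM in Lpcat3 KOMac mice. It did not keep the order of its neighbours, since Lpcat3 KOMac mouse 3 was lowest and Lpcat3 KOMac mouse 2 highest. The log2 fold change was -0.13 (standard error 0.46, 95% interval -1.26 to 1.01), and it was 0.12 without WT mouse 3 and 0.19 without Lpcat3 KOMac mouse 3.

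*Ccl8*, the fourth gene of this cluster, whose mouse product is an agonist of CCR8, was the most uneven of the 10. It had 25, 21 and 240 counts in WT against 63, 417 and 25 counts in Lpcat3 KOMac mice, or 0.385, 0.419 and 5.25 CPM and 1.08, 8.04 and 0.531 CPM. A single mouse of each genotype, WT mouse 3 and Lpcat3 KOMac mouse 2, stood far above the other two. The SD of its log2 CPM within genotypes was 2.03, higher than for 99.6% of the genes tested, against a median of 0.27. The log2 fold change of 0.68 (standard error 1.46, 95% interval -2.97 to 4.33) was 2.99 without WT mouse 3 and -1.28 without Lpcat3 KOMac mouse 2. *Ccl12*, 11.8 kb away and with 64.4% identical coding bases, varied 2.61-fold where *Ccl8* varied 20.9-fold.

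The macrophage inflammatory proteins and their relatives come next. *Ccl3* and *Ccl4*, which encode MIP-1 alpha and MIP-1 beta, attractants of macrophages and T cells, lie 13.2 kb apart on opposite strands. *Ccl3* was at 13.96, 36.6 and 30.9 CPM in WT against 38.1, 20.0 and 28.6 CPM in Lpcat3 KOMac mice. *Ccl4* was at 6.73, 16.65 and 18.9 CPM in WT against 22.1, 11.9 and 12.7 CPM in Lpcat3 KOMac mice. For both genes WT mouse 1 was lowest, Lpcat3 KOMac mouse 1 highest and Lpcat3 KOMac mouse 2 the lowest of its genotype. The log2 fold changes were 0.09 for *Ccl3* (standard error 0.41, 95% interval -0.93 to 1.11) and 0.14 for *Ccl4* (standard error 0.45, 95% interval -0.96 to 1.25). Without WT mouse 1 they were -0.22 and -0.19, and without Lpcat3 KOMac mouse 1 -0.12 and -0.15. The ratio of both RPKM values stayed between 1.41 and 1.94.

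*Ccl5*, also known as RANTES, encodes a leukocyte attractant typical of T and NK cells. It was at 1.91, 1.40 and 3.26 CPM in WT against 2.01, 4.84 and 1.59 CPM in Lpcat3 KOMac mice, highest in Lpcat3 KOMac mouse 2 and next in WT mouse 3, as *Ccl8* was. The 6 T and NK cell transcripts (*Cd3e*, *Cd3d*, *Trbc2*, *Nkg7*, *Gzma* and *Klrb1c*) summed to 1.94, 1.04 and 2.36 CPM in WT against 2.29, 3.05 and 1.76 CPM in Lpcat3 KOMac mice, with none at 3 counts or fewer in every library, and their part in the level of *Ccl5* was not tested. For *Ccl5* the log2 fold change was 0.37 (standard error 0.54, 95% interval -0.97 to 1.70), and it was -0.26 without Lpcat3 KOMac mouse 2.

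*Ccl6* was at 809.8, 710.0 and 812 CPM in WT against 689, 938 and 812 CPM in Lpcat3 KOMac mice. It was the steadiest of the 10, with the highest and the lowest mouse 1.36-fold apart, both of them Lpcat3 KOMac. The means were 777 ± 58.2 CPM and 813 ± 125 CPM (SD, n = 3 each). Its log2 fold change of 0.07 had a standard error of 0.14. Its 95% interval, -0.27 to 0.40, corresponds to a level in Lpcat3 KOMac cells between 0.827 and 1.32 times that of WT. It was the narrowest interval of the 10 genes. Without Lpcat3 KOMac mouse 2 the log2 fold change was -0.03.

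*Ccl9*, the neighbour of *Ccl6* at a distance of 9.24 kb, encodes another CCR1 ligand, and with all 6 mice it had the largest log2 fold change of the 10. It was at 55.6, 15.8 and 79.6 CPM in WT against 109, 123.3 and 54.6 CPM in Lpcat3 KOMac mice. WT mouse 2 was far below the others, and Lpcat3 KOMac mouse 3 lay below both remaining WT mice. The means were 50.3 ± 32.2 CPM in WT and 95.6 ± 36.2 CPM in Lpcat3 KOMac cells (SD, n = 3 each). The log2 fold change of 0.93 (standard error 0.63, 95% interval -0.65 to 2.504) gave an adjusted p = 1.00 in edgeR's quasi-likelihood test and p = 0.3 in a two-sided exact permutation test. It was 0.50 without WT mouse 2 and 1.42 without WT mouse 3. The ratio of *Ccl6* to *Ccl9* in RPKM ran from 10.7 in Lpcat3 KOMac mouse 1 to 76.2 in WT mouse 2, so that these paralogs did not keep a fixed proportion.

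*Ccl24*, or eotaxin-2, an eosinophil attractant that binds CCR3, was at 102, 114 and 78.2 CPM in WT against 79.4, 76.1 and 57.1 CPM in Lpcat3 KOMac mice. The groups overlapped only where Lpcat3 KOMac mouse 1 lay just above WT mouse 3. The means were 97.8 ± 17.97 CPM and 70.9 ± 12.03 CPM (SD, n = 3 each). The log2 fold change of -0.46 (standard error 0.19) had a 95% interval from -0.93 to 0.0027, with an unadjusted p = 0.051 and an adjusted p = 1.00 in edgeR's quasi-likelihood test. The two-sided exact permutation test gave p = 0.2. With another setting the unadjusted p-value of edgeR, beside an adjusted p of 0.522 or higher, was 0.0322 (no low-count filter), 0.0406 (hepatocyte transcripts as a covariate) or 0.0188 (without WT mouse 3).

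Of the 10 genes, 2 (*Ccl9* and *Ccl24*) kept their direction in all 6 fits that left out a mouse, which 38.7% of all genes tested did, and 8 changed it in at least 1 of these fits.

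**Figure D2:**
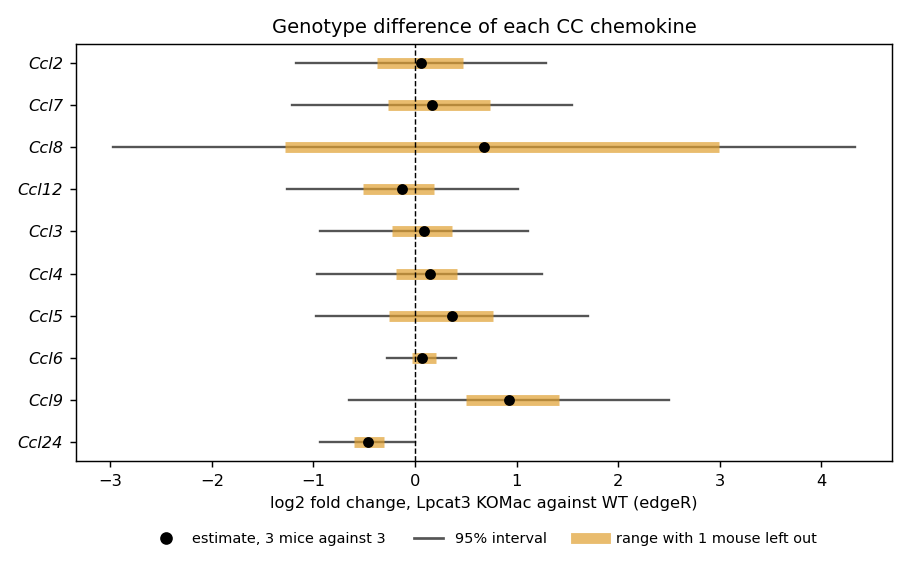
Log2 fold change (Lpcat3 KOMac against WT, edgeR) of each CC chemokine gene as a black point, with its 95% interval as a thin line and the range over the 6 fits that each left out 1 mouse as an orange band. All 10 intervals include 0, that of *Ccl24* by 0.0027, and the bands of *Ccl9* and *Ccl24* alone stay on one side of 0.

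The differences between mice followed more than 1 pattern, and the groups described next were formed after the values were seen. Likeness was measured as the root mean square difference of log2 CPM over the 6 libraries, each gene centred on its own mean, so that 0 would mean the same profile. *Ccl2* and *Ccl7* differed by 0.17, *Ccl2* and *Ccl4* by 0.17 and *Ccl3* and *Ccl4* by 0.19, although *Ccl2* and *Ccl4* lie in different clusters. In these 4 genes WT mouse 1 was 0.88 to 1.04 below the mean on the log2 scale, and Lpcat3 KOMac mouse 1 was 0.52 to 0.86 above it. *Ccl8*, *Ccl5* and *Ccl12* had their highest levels in WT mouse 3 and Lpcat3 KOMac mouse 2. *Ccl9* was 1.94 below its mean in WT mouse 2, a mouse in which *Ccl3* was 0.47 above its own.

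Other transcripts shared parts of these patterns across the same mice. The mean log2 CPM of 12 immediate early genes, such as *Fos*, *Jun* and *Egr1*, which respond within minutes to stress and to tissue digestion, was 5.44, 6.36 and 5.97 in WT against 6.29, 5.62 and 5.90 in Lpcat3 KOMac mice. This mean was lowest in WT mouse 1, where *Ccl2*, *Ccl3*, *Ccl4* and *Ccl7* were lowest too, but highest in WT mouse 2, where those 4 genes were not highest. By summed CPM the 12 immediate early genes were instead lowest in Lpcat3 KOMac mouse 2, at 953 CPM against 990 CPM in WT mouse 1. The 5 hepatocyte transcripts summed to 20185 CPM in WT mouse 1, against 1755 to 1802 CPM in the other two WT mice and 4475 to 12825 CPM in the Lpcat3 KOMac mice. With their mean as a covariate the log2 fold changes of *Ccl2*, *Ccl7*, *Ccl3* and *Ccl4* were 0.39, 0.53, 0.40 and 0.51, none of them called. With both hepatocyte-rich libraries, WT mouse 1 and Lpcat3 KOMac mouse 2, left out they were -0.06, -0.03, -0.02 and -0.03. The 4 genes of lipid-associated macrophages (*Trem2*, *Spp1*, *Gpnmb* and *Cd9*) summed to 237, 111 and 370.5 CPM in WT and to 456, 406 and 446 CPM in Lpcat3 KOMac mice. They were lowest in WT mouse 2 as *Ccl9* was, and 0 of the 4 were called. *Spp1* and *Gpnmb* were higher in every Lpcat3 KOMac mouse than in every WT mouse, as for 2.29% of all genes tested. Sums of 5 stellate cell transcripts (51.5 CPM), 4 dendritic cell transcripts (5.93 CPM) and the 6 T and NK cell transcripts (1.04 CPM) were lowest in WT mouse 2 too. That of 3 cholangiocyte transcripts (0.28 CPM) was also lowest there. Other sums were lowest elsewhere. Those of 5 sinusoidal endothelial (643 CPM) and 4 B cell transcripts (14.9 CPM) were lowest in WT mouse 1. That of 4 monocyte transcripts (74.0 CPM) was lowest in Lpcat3 KOMac mouse 3, and that of 6 neutrophil transcripts (79.0 CPM) in Lpcat3 KOMac mouse 2. The 6 Kupffer cell transcripts summed to 24938 to 34015 CPM in WT and 18864 to 27224 CPM in Lpcat3 KOMac mice, lowest in Lpcat3 KOMac mouse 2, where 5 of the 10 chemokines (*Ccl8*, *Ccl5*, *Ccl12*, *Ccl6* and *Ccl9*) were highest. *Cd5l* and *Clec4f* made up most of each sum, which hides the wider spread of *Marco* and *Timd4*. All 6 Kupffer cell transcripts had a log2 fold change below 0 and 0 were called, while 40.1% of all genes tested lay above 0. The part of these transcripts in the chemokine levels was not tested.

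**Figure D3:**
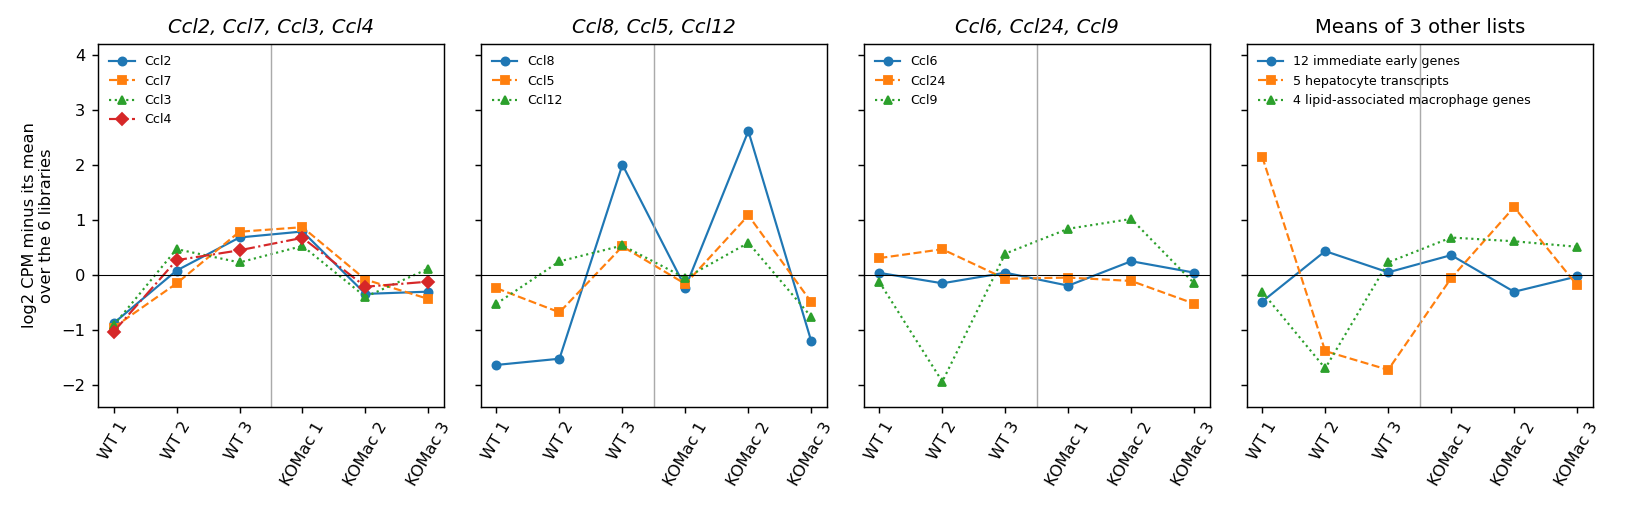
Log2 CPM of each CC chemokine gene minus its mean over the 6 libraries, in 3 panels, and the means of 3 other gene lists in the remaining panel. Lines only join the points of 1 gene, and mice have no order. *Ccl2*, *Ccl7*, *Ccl3* and *Ccl4* are lowest in WT mouse 1 and highest in Lpcat3 KOMac mouse 1, *Ccl8* peaks in WT mouse 3 and Lpcat3 KOMac mouse 2, and *Ccl6* stays within 0.25 of its mean.

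The protein-coding genes outside the family with the nearest profiles, by the same measure, over 6 libraries were *Creb5* for *Ccl2* (0.10), *Mgst2* for *Ccl7* (0.15), *Reep2* for *Ccl3* (0.14) and *BC051142* for *Ccl4* (0.15). *Mgst2* was at 0.0923 to 0.416 CPM, *Reep2* at 0.139 to 0.559 CPM and *BC051142* at 0.308 to 1.08 CPM, so that their profiles rest on few counts. Each nearest gene was picked among all protein-coding genes tested outside the family, so some closeness follows from the search itself. *Creb5*, a transcription factor of the CREB family, was at 5.26, 11.5 and 17.8 CPM in WT against 15.9, 8.25 and 7.90 CPM in Lpcat3 KOMac mice. For *Ccl2*, *Ccl7* and *Ccl4* no more than 2 other genes came nearer than the nearest CC chemokine, and 10 did so for *Ccl3* and 30 for *Ccl8*. The number was 500 for *Ccl5*, 725 for *Ccl9*, 1402 for *Ccl12*, 7404 for *Ccl24* and 9521 for *Ccl6*. These numbers and distances also depend on how far a gene itself varied. The root mean square deviation from its own mean was 0.15 for *Ccl6* and 0.32 for *Ccl24*, against 0.59 for *Ccl2*, 0.65 for *Ccl7* and 1.70 for *Ccl8*. A steady gene lies near many other steady genes, so the values do not rank likeness between steady and uneven genes. The nearest gene to *Ccl8* was *Ptgs2*, the inducible cyclooxygenase, at a distance of 0.63. *Ptgs2* was at 0.2001, 0.499 and 2.23 CPM in WT against 1.02, 2.66 and 0.404 CPM in Lpcat3 KOMac mice. Its lower values rest on few counts too. For the remaining genes these were *Fanci* for *Ccl12* (0.09), *Tspan13* for *Ccl5* (0.06), *Zfand1* for *Ccl6* (0.04), *Ltbp3* for *Ccl9* (0.14) and *Ifi205* for *Ccl24* (0.07).

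Of 10 other CC ligands, 4 passed the filter and 0 were called. *Ccl25* was at 2.96 to 3.91 CPM, *Ccl27a* at 1.16 to 1.83 CPM, *Ccl22* at 0.399 to 2.14 CPM and *Ccl17* at 0.234 to 1.05 CPM. *Ccl22* and *Ccl17*, both ligands of CCR4, differed between genotypes by 0.69 ± 0.61 and -0.90 ± 0.48 on the log2 scale (estimate ± standard error). *Ccl1*, *Ccl11*, *Ccl19*, *Ccl20*, *Ccl21a* and *Ccl28* had at most 3 counts in any library.

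Of 9 CC receptors examined, 6 passed the filter and 0 were called, with 1 at an unadjusted p-value under 0.05. *Ccr2*, the receptor of *Ccl2*, *Ccl7* and *Ccl12* and a gene of recruited monocytes, was at 31.2, 17.5 and 92.5 CPM in WT against 71.6, 58.6 and 51.2 CPM in Lpcat3 KOMac mice. The WT mice thus lay on either side of all Lpcat3 KOMac mice. *Ccr1*, which binds the products of *Ccl6* and *Ccl9*, varied 20.3-fold, from 1.48 CPM in WT mouse 2 to 30.0 CPM in Lpcat3 KOMac mouse 2. The log2 fold changes of *Ccr2* and *Ccr1* were 0.36 ± 0.62 and 0.91 ± 1.00 (estimate ± standard error). That of *Ccr2* was -0.03 without WT mouse 2 and 1.31 without WT mouse 3. Other monocyte transcripts went in both directions, and none was called. The log2 fold changes were 1.70 ± 0.62 for *Chil3*, 0.50 ± 0.35 for *Ly6c2* and -0.51 ± 0.43 for *Plac8* (estimate ± standard error). *Chil3* (unadjusted p = 0.0354 in edgeR) was higher in every Lpcat3 KOMac mouse than in every WT mouse, as for 2.29% of all genes tested.

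*Ccr3*, the eosinophil receptor bound by the product of *Ccl24*, was at 2.49, 1.52 and 3.46 CPM in WT against 4.51, 10.7 and 5.61 CPM in Lpcat3 KOMac mice. Every Lpcat3 KOMac mouse lay above every WT mouse, as for 2.29% of the genes tested. Its log2 fold change was 1.48 (standard error 0.46, unadjusted p = 0.0183, adjusted p = 1.00 in edgeR's quasi-likelihood test), and it stayed between 1.04 and 1.79 with each mouse left out. DESeq2 gave an adjusted p = 0.498. *Ccr7*, *Ccr9* and *Ccr10* were at no more than 1.42 CPM in any library, and *Ccr4*, *Ccr6* and *Ccr8* had too few counts for the test. Of 4 atypical receptors, 0 were called. Those named *Ackr* bind chemokines without the usual signalling. *Ccrl2* was at 16.8 to 30.6 CPM, and its log2 fold change was -0.32 (standard error 0.22), and *Ackr2*, a scavenger of CC chemokines, was at 1.38 to 5.39 CPM, and its log2 fold change was 0.71 (standard error 0.45).

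**Figure D4:**
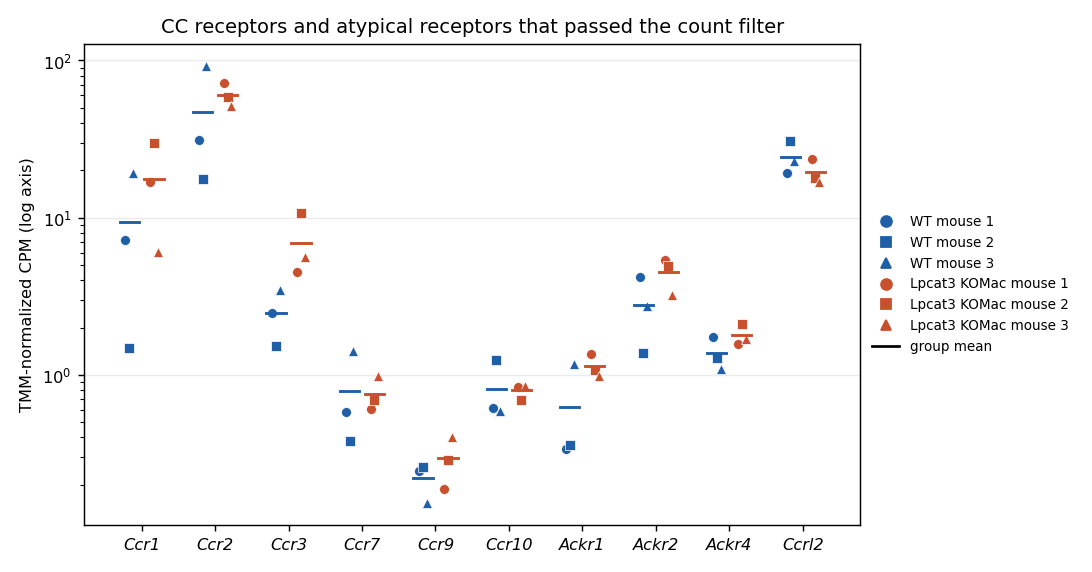
TMM-normalized CPM (log axis) of the 6 CC receptors and 4 atypical receptors that passed the count filter, in each of 3 WT (blue) and 3 Lpcat3 KOMac (orange) mice, with a bar at each group mean. The 3 WT points of *Ccr2* lie on either side of its 3 Lpcat3 KOMac points, while the 3 Lpcat3 KOMac points of *Ccr3* lie above its 3 WT points.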

How the data were processed

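F4/80-positive liver cells were isolated with magnetic beads, and RNA was sequenced in 1 library per mouse. The authors deposited raw read counts per gene for each library. The submitters' processing notes name Trimmomatic 0.36, STAR 2.5.2b, featureCounts of Subread 1.5.2 and the build GRCm38. The strand setting, the treatment of reads with several matches and the annotation release are not given in the sources used here, so reads of overlapping genes on opposite strands may not be separated. Of the 49315 gene IDs, 49056 were found in GENCODE M21, of which 44858 had the same start and end, and this annotation gave coordinates, exonic lengths and coding sequences.

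Total counts were 44954224 to 71392812 per library. Counts were scaled by TMM and filtered with filterByExpr (minimum count 10), which left 16134 genes. They were tested with edgeR 4.0.16 in R 4.3.3 by the robust quasi-likelihood test for genotype, with Benjamini-Hochberg adjustment over all genes and a threshold of 0.05. Standard errors were derived from the F statistic, and intervals are 95% intervals. The exact permutation test on log2 CPM was two-sided. Profiles were compared on log2 CPM with a prior count of 2, and levels of at most 3 counts in every library were treated as not measurable. DESeq2 1.42.0, limma-voom (limma 3.58.1), other scalings and filters, an offset for exonic length, a hepatocyte covariate, a replicate block and the omission of each mouse were alternatives. The scripts were tested on simulated data with less spread between libraries than here. That does not show how small a change the tests could find in these data. All 10 CC chemokines are named, with the listed receptors and the nearest gene to each. The members and gene lists were chosen with earlier results of these data known. The libraries are labelled as separate mice, and p-values measure the spread between these 3 mice of each genotype. Some genes of the receptor and marker lists are not reported here.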

Additional observations from a re-analysis of the deposited data

How the results depend on the processing

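None of the 10 CC chemokines was called under any alternative tried. The lowest count of a member in a library was 21, for *Ccl8*, and the part of depth in the missing calls was not tested. Over all genes edgeR called 0 (426 at an unadjusted p-value under 0.05), whereas DESeq2 called 15 (566 unadjusted). The median log2 fold change of the 10 genes was 0.12, with 0.19 for total counts alone, 0.20 with the length offset, 0.25 in limma-voom, 0.39 with the hepatocyte covariate and -0.05 with both hepatocyte-rich libraries left out. Of 170 values of single genes under an alternative, 21 had the opposite direction, 13 of them with 1 mouse left out. Over the fits without 1 mouse the median ran from -0.18 (without WT mouse 1) to 0.44 (without WT mouse 3). The log2 fold changes ran from -0.37 to 0.47 for *Ccl2*, -0.27 to 0.74 for *Ccl7*, -1.28 to 2.99 for *Ccl8*, -0.51 to 0.19 for *Ccl12*, -0.22 to 0.36 for *Ccl3*, -0.19 to 0.41 for *Ccl4*, -0.26 to 0.77 for *Ccl5*, -0.034 to 0.21 for *Ccl6*, 0.50 to 1.42 for *Ccl9* and -0.60 to -0.30 for *Ccl24*. Leaving out both hepatocyte-rich libraries, a choice made after seeing the data, gave -0.0629 for *Ccl2*, -0.0255 for *Ccl7*, -1.79 for *Ccl8*, -0.0168 for *Ccl3*, -0.0272 for *Ccl4*, -0.36 for *Ccl5* and -0.018 for *Ccl6*, and the hepatocyte covariate gave 0.0293 for *Ccl12*. The causes of these changes were not tested. With the replicate number as a block the median was 0.16, no CC chemokine was called, and 138 of all genes had an unadjusted p-value under 0.05. In that fit *Ccl24* had an adjusted p = 1.00 in edgeR and an unadjusted p = 0.0116. Deviations from the group means correlated with a mean r of -0.18 (-0.60 to 0.36) for equal numbers and 0.11 (-0.58 to 0.67) for unequal numbers. With 3 mice per genotype these values are too few to decide whether equal numbers mark paired mice.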
